A study of Drosophila melanogaster with 3 samples.

Results

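The 10 genes described here encode parts of the Wnt signalling pathway of Drosophila: the ligands wg, Wnt4, Wnt6 and Wnt5, the receptors arr, fz and fz2, the nuclear factors arm and pan, and the feedback inhibitor nkd. They were chosen by name from 13945 protein-coding genes of the Ensembl annotation, and a region was counted for a gene when its summit lay in the gene body or up to 10 kb either side. By that rule 43 of the 5683 reproducible Sox100B-GFP regions belonged to these genes.

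Sox100B is a transcription factor of the Sox family, whose HMG domain binds short A/T-rich motifs. Chromatin immunoprecipitation followed by sequencing was carried out on whole embryos of mixed sex, aged 6 to 16 h, from a transgenic line that expresses Sox100B with GFP at its C terminus, with chromatin sonicated to between 200 and 800 bp. There were 3 biological replicates of 1 group, so no condition was compared with another. No list from an untagged strain or a mock precipitation was used here, and the control experiment that the labels name was not analysed here. Whole embryos mix all cell types, and the cells in which a region was occupied are not known from these data. The labels conflict on what was sequenced: one descriptive field mentions input control, but the antibody and assay fields name a Sox100B immunoprecipitation, which is how the samples were treated.

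Each replicate list and the list from pooled replicates held 30000 regions, peaks and background together. The IDR list held the 5683 regions that passed the authors' threshold on the irreproducible discovery rate, a measure of how alike regions rank in replicates. These were the 5683 strongest regions of the pooled list. Regions with q below 0.05 numbered 8532, 10358 and 8146 in replicates 1, 2 and 3. Regions were ranked within each list by the deposited signal, with rank 1 the strongest, and for comparison with the IDR list the 5683 strongest regions of each replicate were used. The number of reads behind a region is unknown.

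Wnt ligands are secreted, lipid-modified glycoproteins. They bind a Frizzled receptor together with a co-receptor of the LRP family, which is arr in flies, and this stabilises the β-catenin arm. In the nucleus, arm joins the HMG-domain protein pan, the fly TCF, which otherwise represses target genes with Groucho. In the embryonic epidermis wg maintains segment polarity, and the pathway also acts in the midgut, heart and nervous system; nkd is switched on by wg signalling and restrains it through Dishevelled. Sox and TCF proteins both carry an HMG domain, and their DNA motifs share the letters CTTTG.

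The sequences that follow are from the strongest region upstream of wg, which lay beyond the 10 kb limit, and from 7 regions of the Wnt genes that are described in the sections on each gene. They are shown because they span the range of what was found at the summits, from windows with no Sox motif at the strongest region to a weak region with 4. Each runs 100 bp to either side of the summit on the plus strand of release 6 of the genome (dm6, sequence from RefSeq), except that of the region beside pan, which was ended where the neighbouring exon of RpS3A begins. Capitals mark the Sox core (ACAAAG or ACAATG on either strand) and the TCF core (CTTTGAA or CTTTGAT on either strand). 
Wnt6 promoter region of rank 1525, chr2L:7333203-7333403: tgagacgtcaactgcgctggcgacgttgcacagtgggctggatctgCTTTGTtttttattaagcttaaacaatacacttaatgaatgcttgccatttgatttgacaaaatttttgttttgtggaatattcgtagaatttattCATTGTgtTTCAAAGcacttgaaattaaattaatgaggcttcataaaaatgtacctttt
wg upstream region of rank 799, chr2L:7296005-7296205: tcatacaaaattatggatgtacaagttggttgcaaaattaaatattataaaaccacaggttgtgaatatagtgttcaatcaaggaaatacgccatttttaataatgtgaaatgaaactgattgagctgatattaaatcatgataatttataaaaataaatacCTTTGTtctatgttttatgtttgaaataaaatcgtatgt
fz upstream region of rank 254, chr3L:14272481-14272681: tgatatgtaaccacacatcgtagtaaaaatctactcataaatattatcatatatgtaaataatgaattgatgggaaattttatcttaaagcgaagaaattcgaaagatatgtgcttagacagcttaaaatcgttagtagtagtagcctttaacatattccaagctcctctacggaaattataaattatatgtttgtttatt
fz intron 4 region of rank 1198, chr3L:14366255-14366455: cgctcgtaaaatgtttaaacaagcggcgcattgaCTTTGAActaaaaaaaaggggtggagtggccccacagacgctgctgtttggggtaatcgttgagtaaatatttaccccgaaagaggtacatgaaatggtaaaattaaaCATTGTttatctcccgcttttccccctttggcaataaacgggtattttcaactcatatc
fz intron 4 region of rank 3952, chr3L:14354703-14354903: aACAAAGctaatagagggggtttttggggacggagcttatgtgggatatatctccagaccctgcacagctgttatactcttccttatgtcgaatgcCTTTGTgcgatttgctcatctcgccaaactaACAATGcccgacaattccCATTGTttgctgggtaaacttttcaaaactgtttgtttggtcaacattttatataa
nkd intron 1 region of rank 518, chr3L:19042581-19042781: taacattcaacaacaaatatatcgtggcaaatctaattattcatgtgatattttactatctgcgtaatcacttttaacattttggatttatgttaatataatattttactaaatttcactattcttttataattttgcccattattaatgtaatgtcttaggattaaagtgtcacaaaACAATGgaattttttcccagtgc
nkd promoter region of rank 612, chr3L:19045525-19045725: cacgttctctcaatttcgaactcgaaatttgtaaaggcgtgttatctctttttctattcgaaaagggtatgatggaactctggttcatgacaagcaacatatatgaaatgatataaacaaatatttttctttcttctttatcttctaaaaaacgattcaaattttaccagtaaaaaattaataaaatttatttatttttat
region of rank 2898 between RpS3A and pan, chr4:67208-67362: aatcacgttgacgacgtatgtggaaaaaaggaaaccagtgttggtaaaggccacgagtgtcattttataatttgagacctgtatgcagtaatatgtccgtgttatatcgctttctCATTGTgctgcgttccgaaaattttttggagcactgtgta

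The Wnt6 window held Sox cores whose leftmost bases lay 54 bp before and 42 bp after the summit, and a TCF core 50 bp after it, so that one Sox core and the TCF core stood side by side without sharing a base. Only replicate 2 had a summit close to that of this Wnt6 region, 6 bp from it. In replicates 1 and 3 the overlapping region had its summit 283 bp away. The wg upstream window had 1 Sox core 62 bp after the summit. Neither core was found at the fz region of rank 254, the strongest of the 43. The fz region of rank 1198 had a TCF core 66 bp before the summit and a Sox core 42 bp after it, and the weaker fz region of rank 3952 had 4 Sox cores. In nkd, the region of rank 518 had a Sox core 78 bp after the summit and that of rank 612 had none, and the window beside pan had a Sox core 61 bp after the summit. A match is a run of letters in these windows and not a measured binding site.

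Most of the Wnt genes had reproducible Sox100B-GFP regions, but their number ran from 0 at wg and arm to 12 at fz. An IDR summit lay at 8 of the 10 genes, against 56.9% of all protein-coding genes measured the same way. The count rises with gene length, so it was also read within length classes. Of the 3 Wnt genes with a body under 10 kb (wg, Wnt5 and arm) 1 had a summit, against 54.2% of genes of that length; of the 3 with a body of 10 to 30 kb (Wnt4, Wnt6 and arr) all 3 did, against 72.1%; and of the 4 longer ones (fz, fz2, pan and nkd) all 4 did, against 75.7%. With most genes of like length also holding a summit, presence alone did not set the Wnt genes apart. In replicates 1, 2 and 3 the strongest regions reached 8, 8 and 9 of the 10 genes, against 59.0%, 60.0% and 61.4% of all genes. The extra gene of replicate 3 was wg.

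The number of summits was high for 2 genes. fz, with 12, had more summits than 96.2% of the genes with a body over 30 kb, and nkd, with 10, had more than 92.5%. arr had 5, more than 85.3% of genes of 10 to 30 kb, and fz2 had 7, more than 84.0% of genes over 30 kb. fz and fz2, with bodies of 94.3 and 94.4 kb, are long for that class, whose median was 2. Among genes of 79.6 to 126 kb the median was 4 and the 90th percentile 10.2, so fz stood above both and fz2 between them. Wnt4 with 4, Wnt6 with 3 and Wnt5 with 1 stood above 76.7%, 64.8% and 45.8% of their classes, whereas pan, with a body of 44.9 kb and 1 summit, stood above 24.3%. Having no summit, as at wg and arm, was shared by 45.8% of genes under 10 kb. These are positions among genes, not tests.

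**Figure D1:**
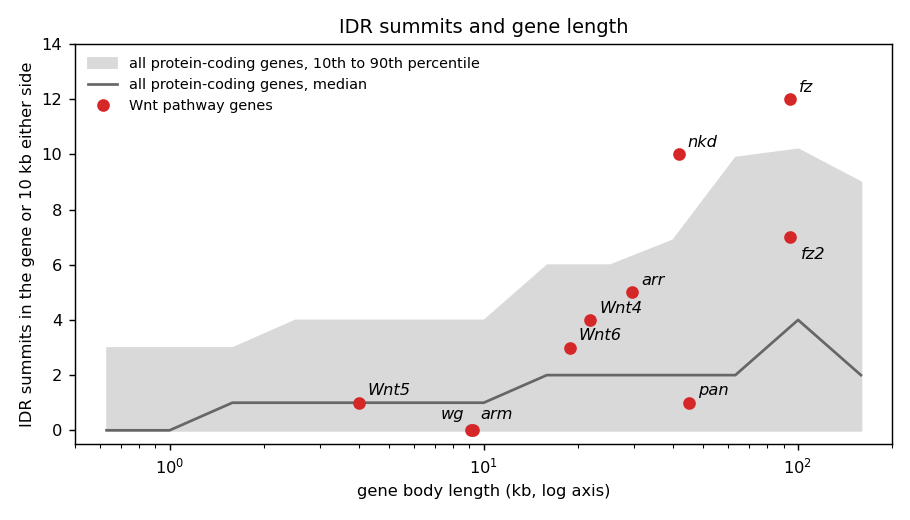
IDR summits in the gene or 10 kb either side (vertical axis) against gene body length in kb (log axis) for the 10 Wnt genes (red points), with the median (line) and the 10th to 90th percentile (grey) of all protein-coding genes of like length. fz with 12 summits and nkd with 10 lie above the grey band, and pan with 1 lies below the median line.

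At the ligand cluster, the reproducible regions were placed around wg rather than in it. Wnt4, wg, Wnt6 and Wnt10 lie next to each other on arm 2L, and the 122 kb from the end of Wnt4 to that of Wnt10 (2L 7255419–7377528) held 11 IDR summits. wg, the ligand of segment polarity (2L 7307159–7316265, plus strand), had none within 10 kb. The nearest IDR summits on either side were 37.2 kb apart. Of the 5677 gaps between neighbouring IDR summits, 15.9% were at least as long, and the median gap was 6.36 kb. A gap chosen because it spans a gene without summits tends to be long, so this share is a description and not a test.

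Upstream of wg, just beyond the limit of 10 kb, stood 3 IDR regions at 11.1, 12.0 and 13.4 kb from the gene. The region at 11.1 kb (2L 7295916–7296275, intergenic) had rank 799 in the IDR list and ranks 738, 884 and 834 in replicates 1, 2 and 3, so all replicates placed it close together and high. Its neighbours had IDR ranks 2908 and 3282. wg has the nearest transcription start site (TSS) to all 3, so that a rule by nearest TSS gives them to wg. The strongest region within 10 kb of wg lay in its intron (2L 7313382–7313845) at pooled rank 7032, which is 1349 ranks below the end of the IDR list, with replicate ranks of 7897, 9642 and 8054. Its −log10 q of 1.99 passes a q of 0.05, as did 3 of the 12 pooled regions at wg.

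Wnt4, a ligand with roles in cell migration and muscle targeting (2L 7255419–7277171, minus strand), had 4 IDR regions, all in intron 1 and all of low rank. The strongest, at 2L 7261906–7262369, had IDR rank 3254 and replicate ranks of 2557, 3579 and 5503. The next, at 2L 7265993–7266456, had IDR rank 3649 and replicate ranks of 4538, 3380 and 4151, and its window held a TCF core. Replicates differed most at the region of rank 3693 (2L 7270278–7270741), with ranks of 2744, 3535 and 12143: replicates 1 and 2 placed it among their strongest 5683 and replicate 3 far below, a 4.43-fold spread in rank that was the widest of the 42 regions found in all 3 replicate lists. The region of rank 5572 was among the strongest regions of replicate 1 alone.

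Wnt6, whose product acts with wg in several tissues (2L 7333714–7352542, plus strand), was the ligand with regions at its own promoter. The region at 2L 7333152–7333433, with its summit 411 bp upstream of the TSS, had IDR rank 1525 and replicate ranks of 2331, 1283 and 1429. A second region of rank 1601 at 2L 7333463–7333656, with its summit 129 bp upstream, was 29 bp away from the first. Replicates 1 and 3 each had a single region over both, so their ranks of 2331 and 1429 serve both. Its summit lay 283 bp from the first IDR summit and 1 bp from the second. Replicate 2 had a separate region at each, ranked 1283 and 1672, so the lists differ on whether this is 1 site or 2. The last, in intron 1 at 2L 7339480–7339943, had IDR rank 3832 and replicate ranks of 5415, 4650 and 3168. Below the IDR list Wnt6 had little, with its next region at pooled rank 15878.

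Wnt5, a ligand for the receptor tyrosine kinase derailed in axon guidance (X 18501401–18505405, minus strand), lies outside the cluster and had 1 IDR region. It was centred 1928 bp upstream of the TSS at X 18507226–18507364, inside an intron of Ggt-1, with IDR rank 2564 and replicate ranks of 2241, 3698 and 3048. All 3 replicates held it among their strongest regions. Another IDR region stood 12.0 kb upstream at rank 4168, with Bx as the nearest TSS.

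**Figure D2:**
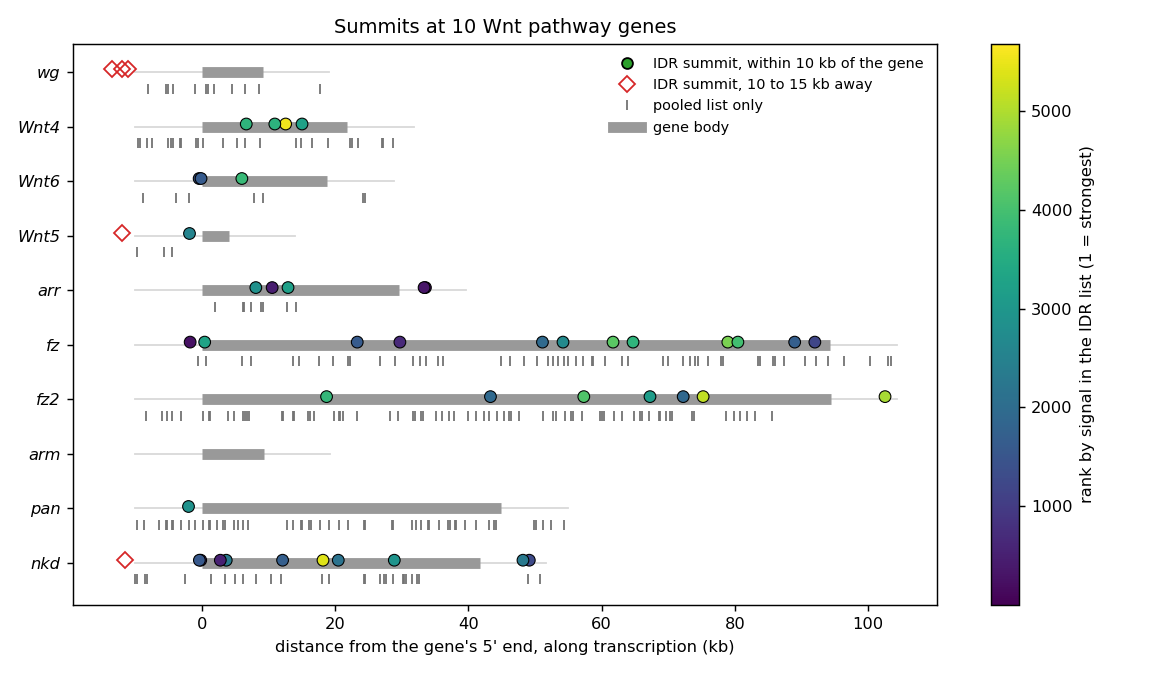
Summits along the 10 Wnt genes, as the distance in kb from each gene's 5′ end along transcription: grey bars are gene bodies, thin lines the 10 kb either side, circles IDR summits coloured by rank, diamonds IDR summits 10 to 15 kb away, and ticks below each gene the summits found only in the pooled list. At wg the 3 diamonds lie upstream of a gene with ticks but no circle, nkd and fz carry 10 and 12 circles, and arm has no mark of any kind.

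Among the receptors, the 3 strongest of all 43 regions were found, though 2 of them lie at a neighbour's start site. arr, the LRP co-receptor (2R 13453640–13483229, minus strand), had 5 IDR regions. The strongest, at ranks 293 and 332, abutted each other at 2R 13449433–13449750 and 2R 13449750–13450002, downstream of arr and in an intron of cnn, a centrosomal gene, with summits 274 and 474 bp from the cnn TSS. The first ranked 284 and 303 in replicates 2 and 3 and overlapped no region of replicate 1, and the second ranked 253, 333 and 354. With nearest TSS as the rule, no region belonged to arr.

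Inside arr, the region at 2R 13472409–13472867 in intron 2 stood out, with a signal of 984, IDR rank 463 and replicate ranks of 421, 578 and 410. All replicates thus placed it near the same high rank. It lay 10549 bp from the arr TSS and held a TCF core and a GATA motif in its window. The other regions of intron 2 were weaker, at ranks 2860 and 3219.

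fz, the receptor of both Wnt and planar polarity signalling (3L 14274343–14368639, plus strand), had 12 IDR regions, 11 of them in its body of 94.3 kb. The strongest of all 43, at 3L 14272334–14272859, was intergenic with its summit 1762 bp upstream of the fz TSS; it had a signal of 1333, IDR rank 254 and replicate ranks of 310, 243 and 226. The next, at 3L 14303882–14304225 in intron 1, had IDR rank 647 and replicate ranks of 779, 585 and 749. The one after, at 3L 14366204–14366507 in intron 4 near the far end of the gene, had IDR rank 1198 and replicate ranks of 1560, 1353 and 926. The replicates kept the order of these 3. The remaining 9 had IDR ranks between 1609 and 4548, and 1 of them, of rank 3289, was centred in the 5′ UTR, 418 bp from the TSS. In all, 66 pooled regions lay at fz, of which 18.2% were in the IDR list, close to the 18.9% of the whole pooled list.

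fz2, which binds wg with high affinity (3L 19140975–19235373, minus strand), is of nearly the same length as fz and had 7 IDR regions, 2 of them among the 2841 strongest of the list. The strongest, at 3L 19163026–19163148 in intron 1, had IDR rank 1890 and replicate ranks of 1509, 2037 and 2761. The next, at 3L 19191953–19192098, in an intron of the longer isoforms, had IDR rank 1920 and replicate ranks of 1884, 2556 and 1743. The next after that, at 3L 19167875–19168338, had IDR rank 3111 and replicate ranks of 5904, 2811 and 4251. At fz, 18.2% of 66 pooled regions reached the IDR list and 19 passed a q of 0.05; at fz2, 8.64% of 81 reached the list and 21 passed. The weakest IDR region of fz2, of rank 5145, ranked 12690, 4085 and 8438 in the replicates and was among the strongest of replicate 2 alone.

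In the IDR list the nuclear factors had the fewest summits per 100 kb of the roles. arm, the fly β-catenin (X 1891401–1900646, minus strand), had no summit of the pooled list within 10 kb, which 18.5% of all protein-coding genes shared. Replicate 2 alone listed regions at arm, 3 in number; the strongest, 158 bp from an arm TSS, had rank 10758 and a −log10 q of 1.25, just short of a q of 0.05. The IDR summits on either side were 86.0 kb apart, and 5.5% of gaps were at least as long. This gap, too, was chosen because it spans a gene without summits, which favours long gaps.

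pan, the fly TCF (arm 4, 69326–114270, plus strand), had 1 IDR region, at 4 67127–67379. It lay 2064 bp upstream of pan but 55 bp from the TSS of RpS3A, a ribosomal protein gene, with IDR rank 2898 and replicate ranks of 3817, 3675 and 2140. After it came a gap of 100.5 kb that covered the whole of pan, a length that 4.17% of gaps on all 6 arms reached. Like those at wg and arm, it was chosen because it spans the gene, which favours long gaps. IDR summits were also sparser on arm 4, at 2.08 per 100 kb against 4.24 on the 6 arms. The gene was not empty in the pooled list, where it had 55 regions, 13 of them with a q under 0.05, yet 1.82% of the 55 were in the IDR list. The nearest to enter, in a pan intron, was 130 ranks below the end of the list and had replicate ranks of 3862, 9904 and 8722. A low share was common on the small arm 4, where 28 of 770 pooled regions, or 3.64%, were in the IDR list, against 18.9% on all 6 arms; the part of the arm in the result at pan was not tested.

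nkd, the feedback inhibitor (3L 19003741–19045449, minus strand), had the densest regions of the 10 genes. At 3L 19042474–19042863 in intron 1, with its summit 2768 bp into the gene, a region with a signal of 921 had IDR rank 518 and replicate ranks of 445, 577 and 610. At the promoter, 2 regions of ranks 612 and 1556 started at the same base (3L 19045474) with summits 176 and 376 bp upstream of the TSS; in every replicate a single region covered both, ranked 444, 733 and 764. The gene thus had a promoter site and an intronic site of like rank in each replicate. A further region of rank 1273, at 3L 18996068–18996531, lay downstream in an intron of CG18135, 491 bp from that gene's TSS, and ranked 1558, 1302 and 1263. The other 6 had IDR ranks from 1707 to 5408. Of the 10 regions 8 were among the 2841 strongest of the IDR list, and the median rank was 1938, against 2564 for all 43 regions of the Wnt genes and 2842 for the whole list.

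**Figure D3:**
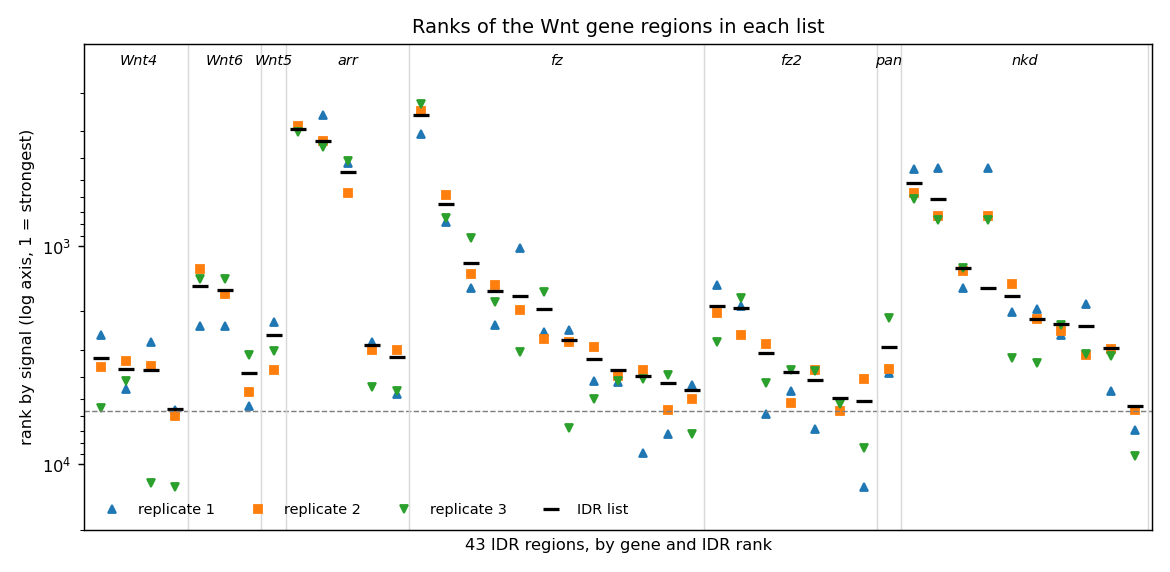
Rank by signal (log axis, 1 the strongest, at the top) of the 43 IDR regions of the Wnt genes, ordered by gene and IDR rank: black bars give the IDR rank, coloured symbols the rank of the overlapping region in replicates 1, 2 and 3, and the dashed line rank 5683. The strongest regions of arr, fz and nkd cluster near the same rank in all replicates, and symbols below the line are scattered among the weaker regions of Wnt4, fz, fz2 and nkd.

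The ligand cluster was then set against the receptors and nuclear factors by the number of summits per 100 kb of gene plus 10 kb either side. In the IDR list the densities were nearly equal, 6.53 per 100 kb for wg, Wnt4 and Wnt6 (7 summits in 107 kb) and 6.71 for arr, fz, fz2, arm and pan (25 in 372 kb), with 4.24 for the 6 arms as a whole. From the strongest regions of replicates 1, 2 and 3, the ligand cluster had 7.47, 5.6 and 4.67 and the receptors and nuclear factors had 7.25, 7.79 and 8.05. The groups overlapped, with the ligand cluster slightly higher in replicate 1 and lower in replicates 2 and 3. The mean was 5.91 ± 1.43 for the ligand cluster and 7.7 ± 0.41 for the receptors and nuclear factors (SD, n = 3). The difference averaged −1.78 ± 1.84 per 100 kb (SD, n = 3; exact sign-flip permutation test, two-sided, p = 0.5, where 3 replicates allow no p below 0.25), so it was no larger than the spread between replicates. With narrower windows the order turned, to 8.78 against 7.44 for 5 kb either side and 10.1 against 7.34 for the gene body alone. The density of the ligand cluster also depends on the limit of 10 kb, which left out the 3 IDR summits 11.1 to 13.4 kb upstream of wg.

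Receptors and nuclear factors were far apart in the IDR list, while their averages over the pooled list were close together. Receptors had 8.62 summits per 100 kb in the IDR list and the nuclear factors 1.06, and the replicate means were 9.58 ± 0.83 for receptors and 2.12 ± 1.06 for nuclear factors (SD, n = 3), with no overlap in any replicate. Over all pooled regions, background included, the densities were 57.5 per 100 kb for receptors and 58.4 for nuclear factors. The latter value averages unlike genes, since pan held all 55 of the pooled regions and arm held 0. Most of the window of the nuclear factors is that of pan on arm 4, where the IDR density was 2.08. The part of the arm in the difference was not tested. In the IDR list fz alone had 10.5, and without it the density of the receptors and nuclear factors was 5.04. nkd stood at 16.2 in the IDR list, with 16.2, 17.8 and 17.8 in the replicates, above every other group in all 3. Wnt5 had 4.17 in the IDR list and in the strongest regions of every replicate. By rank, 2 of the 7 regions of the ligand cluster were among the 2841 strongest of the IDR list (median rank 3649), against 12 of the 25 of the receptors and nuclear factors (median rank 2860).

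**Figure D4:**
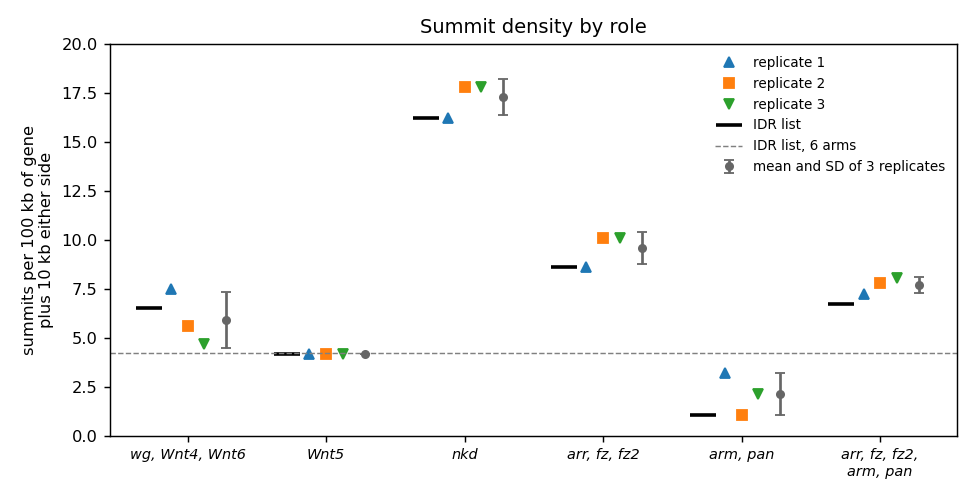
Summits per 100 kb of gene plus 10 kb either side, by role of the Wnt genes: black bars are the IDR list, coloured symbols the strongest regions of replicates 1, 2 and 3, grey points and whiskers the mean and SD of the 3 replicates, and the dashed line the IDR density over the 6 arms, 4.24. nkd lies highest at 16.2, arr, fz and fz2 lie above the line, and arm and pan lie below it.

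More of the 43 regions lay inside introns than within 1 kb of a TSS. These classes overlap, since a summit near a TSS can lie in an intron, as at cnn and CG18135. In the gene bodies there were 31, upstream 7 and downstream 5, and 15 fell in intron 1 of the canonical transcript. Introns of any gene held 36 of the 43 summits (83.7%), against 54.4% of all IDR summits, and 10 (23.3%, exact 95% binomial interval 11.8 to 38.6%) lay within 1 kb of a TSS, against 43.6%. The rule itself takes in more gene body where genes are long, so this is a description of the 10 genes. The interval treats the regions as independent, though several lie at the same gene, so it is not a test against the 43.6%. Of the 10 promoter summits 5 were at a Wnt gene (Wnt6, fz and nkd) and 5 at another gene (cnn, RpS3A, CG18135 and CG13482). Over all 43, the nearest TSS was that of the Wnt gene for 21 and of another gene for 22. With the pairs of regions that lay within 100 bp of each other merged, at Wnt6, at arr and at nkd, the 43 regions formed 40 sites. All of these pairs were among the 10 promoter summits.

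These regions came from the IDR list, which was selected for regions that rank alike in these same replicates. Agreement between replicates was thus favoured in advance, and the values below only describe it. For summit distance and rank correlation, no value for the whole list was set beside them. Every replicate had one of its 5683 strongest regions over 31 of the 43 (72.1%), against 71.0% for the IDR list as a whole; another 9 were covered in 2 replicates and 3 in 1. Of 128 replicate summits that could be compared, 101 (78.9%) lay within 50 bp of the IDR summit, with a median of 14.5 bp and a largest distance of 283 bp. Spearman's rho between replicate ranks over the regions was 0.865 for replicates 1 and 2, 0.785 for 1 and 3 and 0.822 for 2 and 3, as a description of regions that share libraries.

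Motifs were counted at the Wnt genes beside the whole IDR list, with no test, and the interval given treats the regions as independent. The Sox core was in 15 of the 43 windows of 201 bp (34.9%, exact 95% binomial interval 21.0 to 50.9%), against 24.9% of all IDR windows, but within 50 bp of the summit in 6, against 13.3%. The TCF core was in 4 windows (9.3%), against 9.61%: one each at Wnt4, Wnt6, arr and fz. GCCGCC, the core of the helper site used by fly TCF, was in 1 window, against 3.75%. GATA motifs (AGATAA or AGATAG, and also TGATAA or TGATAG) were in 19 (44.2%), against 42.1%, the GAGA repeat GAGAG in 10 (23.3%), against 19.2%, and the E-box CAGCTG in 2, against 5.98%. The DRE motif, which is TATCGA followed by TA, was in none, against 1.79%. Mean GC content was 32.8% at the Wnt genes and 33.2% over the list. All motifs were searched on both strands.

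Elsewhere in the pathway, 46 further genes were listed by role, and 39 of them (84.8%) had an IDR summit by the same rule, against 56.9% of all protein-coding genes. By length the share was 84.0% of 25 genes under 10 kb, against 54.2% of all protein-coding genes of that length. It was 78.6% of 14 of 10 to 30 kb, against 72.1%, and 100% of 7 above, against 75.7%. Neighbours share these regions: for 22 of the 46 genes a summit lay nearest to the gene's own TSS. No share over all genes is given beside that count. All 10 receptors and co-receptors had a summit (the strongest near otk and otk2, which share a region of rank 621 nearest to the TSS of Mppe, near fz4, where the nearest TSS is that of CG4615, and near dlp, where it is that of RecQ5), as did 8 of 9 cytoplasmic genes, 9 of 10 nuclear genes, 8 of 10 targets, 2 of 3 secretion genes, Notum, a secreted feedback inhibitor, and 1 of 3 other ligands. The 7 without were Wnt2, wntD, wls, Axn, CtBP, Dll and en. Notum, with a body of 9.27 kb, had 8 IDR summits by the same rule, so many summits were not particular to nkd.

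Among the cytoplasmic and nuclear genes of the list, some regions ranked above the strongest of the 10 genes, that of fz at 254. Those near gish, pygo, osa, nej and gro did so, whereas those near sgg, CkIalpha and slmb ranked below it. gish, a casein kinase gene, had a region of rank 57 in its own intron, 167 bp from its TSS. sgg, the GSK3 kinase that marks arm for destruction, had one of rank 354, 198 bp from its TSS. The region of rank 38 near pygo, a nuclear cofactor of arm, lay 136 bp from the TSS of CG1635, whereas osa, a chromatin remodelling subunit, had rank 125 in its own intron and nej, the CBP acetyltransferase, had rank 209, 647 bp from its TSS. At gro, the co-repressor that pan recruits, the region of rank 230 was nearest to E(spl)m7-HLH. CkIalpha and slmb, which act in the turnover of arm, had ranks 344 and 655 with the nearest TSS that of Tis11 and Rab11. Among targets, slp1 and slp2 shared a region of rank 323 between them, the region of rank 1153 near vg lay 215 bp from the TSS of Nmda1, and mid and sens had ranks 1823 and 2873 with their own TSS nearest.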

How the data were processed

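Sox100B-GFP ChIP-seq region lists of 3 embryo replicates were used, in 1 group. The authors deposited 5 lists on dm6: per the deposited file descriptions, 1 of 30000 regions for each replicate, 1 for the pooled replicates and the IDR list; the 4 lists of 30000 also drew on 1 further shared file of unstated content. The deposited signal comes from the peak caller, on an unstated scale, and was used for ranks inside one list alone. The deposited −log10 q-value and summit offset were taken as given. Which aligner, peak caller and IDR threshold served is not given in the sources used here. Read depth is unknown, so intervals cover the counting of regions only. Columns of other series numbered 0.

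Summits were assigned to protein-coding genes of Ensembl release 115 (body plus 10 kb), counting each once. Replicate overlap needed 1 bp. The ligand difference was tested by an exact sign-flip permutation over replicates; p-values measure the spread between these 3 samples. No other test was run, since regions are not replicates. The counting code was tested on simulated data. Alternatives were other windows, gene assignment by nearest TSS, stricter and wider lists, overlap, motif window and leaving out each replicate. All 10 genes are named, with up to 3 regions each in full, and up to 4 further genes per role; other genes are named where their TSS is nearest, and those without a summit, and regions beyond the rule, were singled out after their values were seen. Members and lists were chosen with earlier results of these data known. Python 3.11.15, NumPy 2.4.6, SciPy 1.17.1, pandas 2.3.3 and matplotlib 3.10.9 were used.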

Additional observations from a re-analysis of the deposited data

How the results depend on the processing

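The number of Wnt genes with an IDR summit stayed between 6 and 9 under every alternative run. No share of all protein-coding genes under the same settings is given beside these counts. They thus do not show whether the Wnt genes differ from other genes. The count of 43 summits became 24 by nearest TSS, 23 in the 2841 strongest IDR regions and 92 in pooled regions with a q under 0.05, and ranged from 32 to 36 when IDR regions had to be overlapped in the 2 remaining replicates as each was left out. The density of the ligand cluster, 6.53 per 100 kb, was 8.78 with 5 kb either side, 12.6 with 1 kb, 10.1 in the gene body, 1.87 in the strongest 2841 and 14.9 in pooled regions with a q under 0.05, and 4.67 to 5.6 with 1 replicate left out. For receptors and nuclear factors, 6.71, these were 7.44, 7.08, 7.34, 3.22, 16.1 and 4.56 to 5.64. Regions shared by 3 replicates numbered 19 with 50% overlap in place of 31, and 16 when only the 2841 strongest of each replicate were taken, and 32 to 36 with 1 replicate left out, where sharing by 2 was asked. Sox cores within 50 bp were in 6 windows in place of 15; with 1 replicate left out the count was 12 to 13. Promoter summits numbered 8 to 9 with 1 replicate left out. Leaving out replicates for these last 3 was chosen after seeing the data. No paired analysis was possible because there is 1 group of samples; the ligand difference was taken between gene groups within each replicate. With no reads and no control list, absence from the IDR list is not absence of binding.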

Other observations

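The assignment of several regions near the Wnt genes depends on where the limit of 10 kb is drawn or to which gene they are given. Besides the 3 regions upstream of wg, an IDR region of rank 4467 lay 11.5 kb upstream of nkd, nearest to the TSS of CG43407; it ranked 3089 and 3640 in replicates 1 and 2 and overlapped no region of replicate 3. By nearest TSS wg would hold 3 IDR regions, fz 3 in place of 12, nkd 7 in place of 10, Wnt4 1 in place of 4, and arr and pan 0. Wnt10, at the end of the ligand cluster, had 1 intronic region of rank 4641, nearest to the TSS of ninaC.

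Some pooled regions below the IDR list overlapped the same replicate regions as a neighbouring IDR region, so their replicate ranks are those of that neighbour. A second pooled region beside RpS3A, of pooled rank 6510, overlapped replicate regions ranked 3817, 3675 and 2140, the same as those of the IDR region next to it. In an nkd intron, a region of pooled rank 6240 overlapped replicate regions ranked 4642, 2982 and 3196, the same ranks as at the IDR region of rank 2939 beside it. In fz2, a region of pooled rank 6128 overlapped replicate regions ranked 1884, 2556 and 1743, likewise those of a neighbouring IDR region.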
